A study of Drosophila melanogaster with 12 samples.

Results

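Of 15473 transcripts on a *Drosophila melanogaster* array, 42 were far more abundant in whole guts than in purified enteroblasts (EBs). These 42 had similar mean levels with and without RNAi against the transcription factor Hey. They were chosen by 3 limits on differences of group means, on a log2 scale after quantile normalization over all arrays, a step that gives every array the same distribution of values. Control EBs had to lie at least 4 log2 units (16-fold) below control guts. The mean of dHey RNAi guts had to lie within 0.4 log2 units (1.32-fold) of control guts, and the mean of dHey RNAi EBs within 0.8 log2 units (1.74-fold) of control EBs. All 3 comparisons between the groups were therefore used to choose the transcripts, and their values are given as a description.

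RNA was measured on 12 one-colour NimbleGen arrays, 3 in each of 4 groups of adult females. The dHey RNAi EBs and the control EBs were purified from guts through a surface mCD8GFP that Hey-Gal4 drives, mostly in EBs, and this driver also expressed UAS-dHey RNAi or, in the controls, UAS-GFP. The dHey RNAi guts and the control guts were whole guts in which Myo-GAL4, an enterocyte driver, expressed UAS-dHey RNAi or UAS-GFP. Flies of all groups were kept at 18 °C and moved to 29 °C for 2 days, at 2 to 4 days of age per the labels. With the enterocyte driver the study lists a temperature-sensitive Gal80, which lets Gal4 act at 29 °C. It lists none with the Hey-Gal4 line, so whether the EB transgenes were off before the move is not given. Flies for EB purification were first aged longer in the cold according to the study's methods, and may have been older. The purity of the EB preparations differed between experiments according to the study, and the sources used here do not tie a purity to an array. Guts also hold enteroendocrine cells, visceral muscle and progenitors, which are not the target of Myo-GAL4.

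Enteroblasts are the precursors that Notch signalling commits to the absorptive fate, and enterocytes are the large polyploid cells that digest and take up food. Hey is a bHLH repressor of the Hairy/E(spl)-related family, whose members are classical Notch targets. A transcript that is abundant in whole guts and scarce in EBs can belong to enterocytes or to any other cell of the gut. In whole tissue, fewer cells of a type and less RNA per cell cannot be told apart.

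The files give transcript identifiers without gene names. In the reference annotation, 44 identifiers of the array were listed as synonyms, and none of the 42 was among them. The transcripts are therefore given by identifier, with no role assigned. Likewise none of 592 symbols on 17 lists of enterocyte, enteroendocrine, progenitor, muscle and other markers could be found, so the tissue labels and the level of *Hey* itself could not be checked. Several identifiers are neighbours, such as FBtr0088141 and FBtr0088142, or FBtr0071560 and FBtr0071561. Whether such pairs come from one gene is not given in the sources used here, so the 42 need not be 42 genes.

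The 42 were the smaller part of the strongly gut-enriched transcripts. In all, 300 transcripts (1.94%) lay at least 16-fold lower in control EBs than control guts. The gut limit was met by 80 of these 300 (26.7%), against 9812 of all transcripts (63.4%). The EB limit was met by 151 of the 300 (50.3%), against 10481 of all (67.7%). Both limits together left 42 of the 300 (14%), against 7028 of all (45.4%). Of those past the gut limit, 193 of the 300 were lower in dHey RNAi guts and 27 were higher, while over all transcripts 2862 were lower and 2799 higher. The comparison of the tissues and that of the guts share the control guts, and the comparison of the tissues and that of the EBs share the control EBs, so these shares are not independent. Within the 80 that met the gut limit, 29 were higher in dHey RNAi EBs past the EB limit and 9 were lower.

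**Figure D1:**
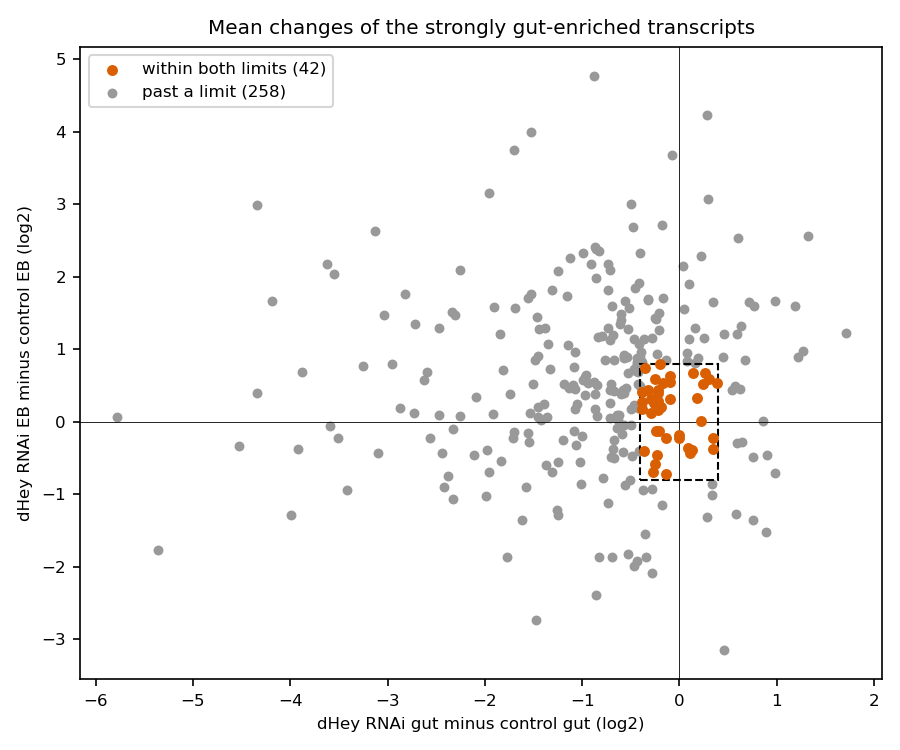
Each point is 1 of the 300 transcripts with a mean at least 16-fold lower in control EBs than control guts, with the mean change in dHey RNAi guts against control guts (x axis, log2) and in dHey RNAi EBs against control EBs (y axis, log2). The dashed box marks the limits of 0.4 and 0.8 log2 units around the 42 chosen transcripts, and the other 258 spread mostly to its left.

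The limits cut through a continuous spread. The transcripts closest to the tissue limit from inside were FBtr0086889 at -4.02 and FBtr0078619 at -4.05 (control EBs minus control guts), and from outside FBtr0087003 at -3.99 and FBtr0072105 at -3.98. For the gut limit these were FBtr0087992 at -0.385 and FBtr0076956 at 0.384 inside, and FBtr0083079 at -0.406 and FBtr0078354 at -0.412 outside. For the EB limit, FBtr0071561 at 0.796 and FBtr0083032 at 0.736 lay inside, and FBtr0084821 at 0.805 and FBtr0076331 at 0.818 outside.

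The difference between the tissues was wide for every transcript chosen. The median difference of control EBs from control guts was -4.82 log2 units, with a range of -7.86 to -4.02. Of the 42, 17 lay at least 32-fold and 6 at least 64-fold lower in control EBs. The lowest of the 6 gut arrays lay above the highest of the 6 EB arrays for 42 of 42 transcripts. In control EBs against control guts, all 42 were lower with an adjusted p under 0.05 by limma with Benjamini-Hochberg adjustment, where 17.2% of all transcripts were called lower and 43.7% in either direction. The lowest control gut array lay above the highest control EB array for all of them, as for 22.2% of all transcripts. The tissue limit bears directly on these counts.

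FBtr0084810 had the widest difference of all transcripts on the array. It read 5.09, 4.95 and 4.58 in dHey RNAi EBs, 5.67, 5.58 and 4.63 in control EBs, 13.33, 13.50 and 12.97 in dHey RNAi guts, and 13.14, 13.15 and 13.16 in control guts (log2 level). The arrays of each tissue therefore stayed close together, some 8 units apart from the other tissue, and dHey RNAi and control arrays overlapped in both tissues. In control EBs, 8.75% of transcripts were dimmer than FBtr0084810, and in control guts 92.1%. FBtr0083032 read 4.99, 8.28 and 6.03 in dHey RNAi EBs, 6.01, 5.10 and 5.99 in control EBs, 12.35, 12.34 and 12.65 in dHey RNAi guts, and 12.62, 12.81 and 12.98 in control guts. One dHey RNAi EB array, the second, stood above the other EB arrays, with a mean of 6.43 ± 1.68 in dHey RNAi EBs and 5.70 ± 0.52 in control EBs (SD, n = 3 each). FBtr0083034 behaved alike in that array, with 5.75, 7.54 and 6.03 in dHey RNAi EBs and 5.68, 5.59 and 6.29 in control EBs.

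The other 7 of the 10 transcripts with the widest tissue difference ran from -6.65 for FBtr0076273 to -5.40 for FBtr0071561. FBtr0085345 averaged 6.98 ± 0.74 in dHey RNAi EBs, 6.40 ± 0.39 in control EBs, 13.00 ± 0.27 in dHey RNAi guts and 12.70 ± 0.08 in control guts (SD, n = 3 each). FBtr0075528 averaged 6.20 ± 0.65 in dHey RNAi EBs, 5.66 ± 0.28 in control EBs, 11.61 ± 0.13 in dHey RNAi guts and 11.71 ± 0.26 in control guts. In both of these the difference between the knockdown and control means was within about 1 SD of the noisier group. FBtr0079501 averaged 5.67 ± 0.14 in dHey RNAi EBs and 5.46 ± 0.26 in control EBs, and 10.96 ± 0.15 in dHey RNAi guts and 11.15 ± 0.31 in control guts. FBtr0080895 kept a higher floor, at 7.66 ± 0.28 in dHey RNAi EBs and 8.11 ± 0.48 in control EBs, with 13.45 ± 0.30 in dHey RNAi guts and 13.68 ± 0.27 in control guts. FBtr0081553 stood out from these by its spread in EBs, with 4.73, 8.77 and 8.69 in dHey RNAi EBs against 7.93, 5.98 and 7.10 in control EBs.

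**Figure D2:**
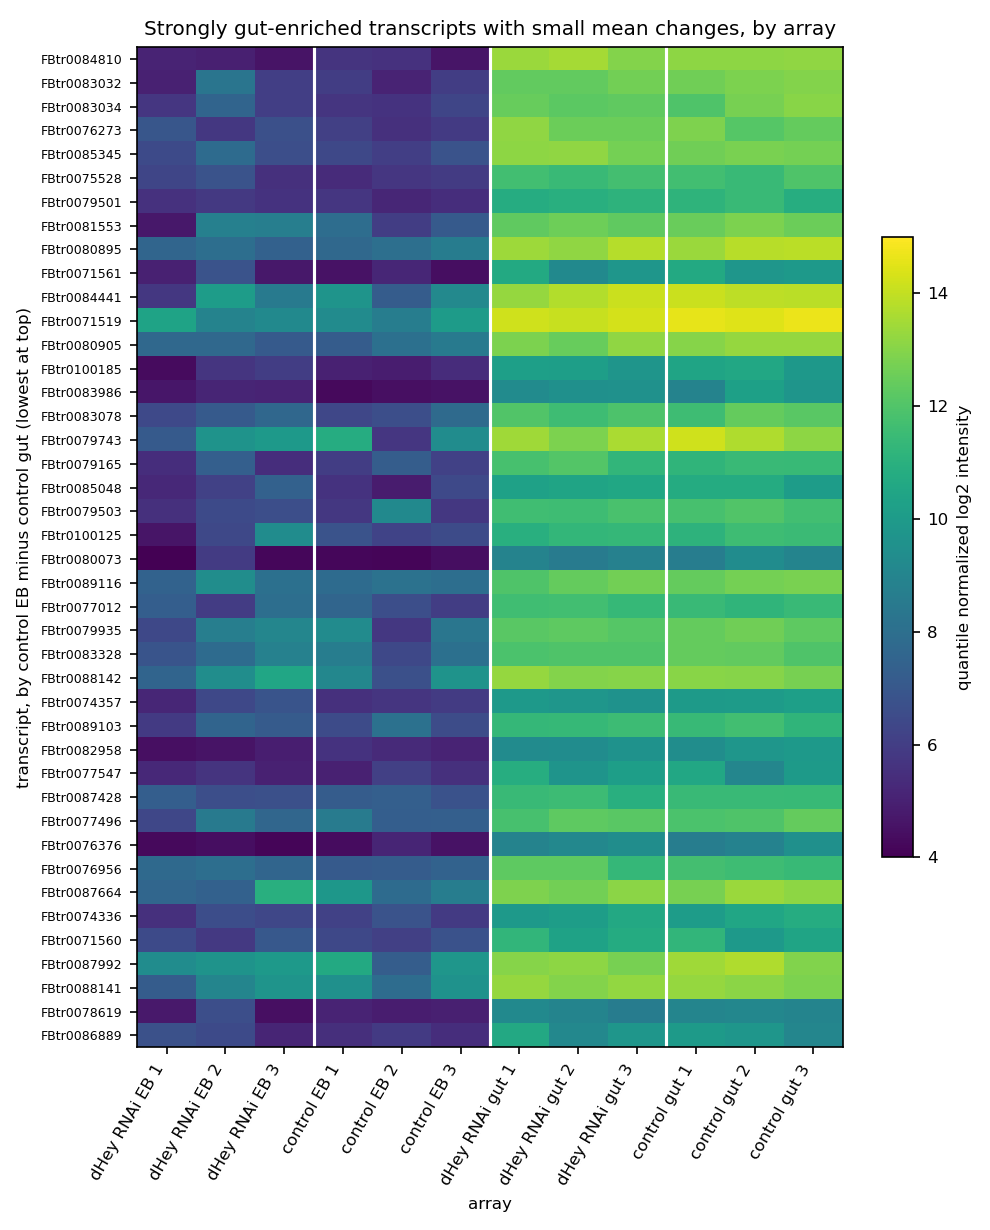
Quantile normalized log2 intensity (colour) of the 42 transcripts (rows, widest tissue difference at the top) in the 12 arrays (columns, dHey RNAi EBs, control EBs, dHey RNAi guts, control guts). All 42 rows are bright in the 6 gut arrays and dark in the 6 EB arrays, and uneven colour within a row is found mainly in the EB columns.

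In guts the chosen transcripts were of middle to high level. The mean level over 3 arrays had a median of 11.77 in both dHey RNAi guts and control guts, and ranged from 8.77 to 14.19 in dHey RNAi guts and from 8.99 to 14.58 in control guts. In control guts, 39 of 42 lay above the middle of all transcripts, 21 in the brightest 25% and 9 in the brightest 10%. The 258 other strongly gut-enriched transcripts had a median of 12.17 in control guts. FBtr0071519 was the brightest of the 42, at 14.22, 14.07 and 14.29 in dHey RNAi guts and 14.59, 14.47 and 14.68 in control guts. Its arrays did not overlap between these groups, although its mean difference of -0.38 met the limit. FBtr0084441 (13.71 ± 0.42 in dHey RNAi guts, 13.96 ± 0.13 in control guts), FBtr0080895, FBtr0079743 (13.29 ± 0.39 in dHey RNAi guts, 13.67 ± 0.55 in control guts) and FBtr0087992 (12.96 ± 0.19 in dHey RNAi guts, 13.34 ± 0.39 in control guts) followed it in level, with overlapping arrays.

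More of the small gut changes lay below 0 than above it. The median difference of dHey RNAi guts from control guts was -0.20 log2 units (range -0.39 to 0.38). Over the 258 others the median was -0.72. Of the 42 differences, 30 lay below 0, against 47.8% of all transcripts. The tissue limit favours high control gut values, and so differences below 0, so nothing is read from this share. None of the 42 was called by limma (adjusted p under 0.05), where 4.12% of all transcripts were, and none with the replicate number as a block (4.72% of all). Unadjusted p-values under 0.05 numbered 0 in the fit of all 12 arrays and 2 when the 6 gut arrays were fitted alone. The arrays of the groups did not overlap for 3 of 42 transcripts that were lower in dHey RNAi guts (19.9% of all) and for 0 that were higher (22.7% of all). These 3, named after their values were seen, were FBtr0071519, FBtr0079935 and FBtr0074357. FBtr0079935 read 12.20, 12.27 and 12.10 in dHey RNAi guts against 12.39, 12.61 and 12.29 in control guts. FBtr0074357 read 9.92, 9.76 and 9.61 in dHey RNAi guts against 9.99, 10.04 and 10.23 in control guts. In both, the nearest arrays of the groups were less than 0.1 log2 units apart. Same-numbered gut arrays differed in 1 direction in all 3 pairs for 13 of 42 transcripts lower in dHey RNAi guts (28.4% of all) and for 2 higher (31.4% of all). The gut limit bears directly on these counts of calls, non-overlapping arrays and pairs. The median SD between gut replicates was 0.23 in dHey RNAi guts and 0.25 in control guts, below that in EBs but above the 0.16 in dHey RNAi guts and 0.19 in control guts over all transcripts, and 7 of 42 transcripts spanned more than 1 log2 unit within a gut group.

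When the 6 arrays of each tissue were fitted alone, the intervals of the changes were wider in EBs than in guts. The 42 were chosen for mean changes near 0, which favours intervals close to 0, and the EB limit of 0.8 log2 units leaves less room below 1 than the gut limit of 0.4, so that nothing is read from the counts against the shares of all transcripts. When the 6 gut arrays were fitted alone, the 95% interval of the gut change (not adjusted) lay wholly within 1 log2 unit of 0 for 36 of 42 transcripts, with a median width of 0.94, where 73.8% of all transcripts had such an interval. In the fit of all 12 arrays, in which the wider spread of EBs enters the shared error, 9 of 42 did (51.6% of all), with a median width of 1.92, and 20 of 42 did with the replicate number as a block (59.3% of all). The 6 EB arrays fitted alone gave such an interval for 3 of 42 transcripts (22.8% of all), with a median width of 2.44 and a largest width of 6.64. In the fit of all 12 arrays, with its shared error, the EB intervals were as wide as the gut intervals (median 1.92). There 5 of 42 had such an interval in EBs (34.6% of all), and 12 of 42 when that block was included (41.2% of all). For most of the 42 the EB interval thus reached past a 2-fold change, and the small mean differences in EBs do not show that the levels were equal.

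**Figure D3:**
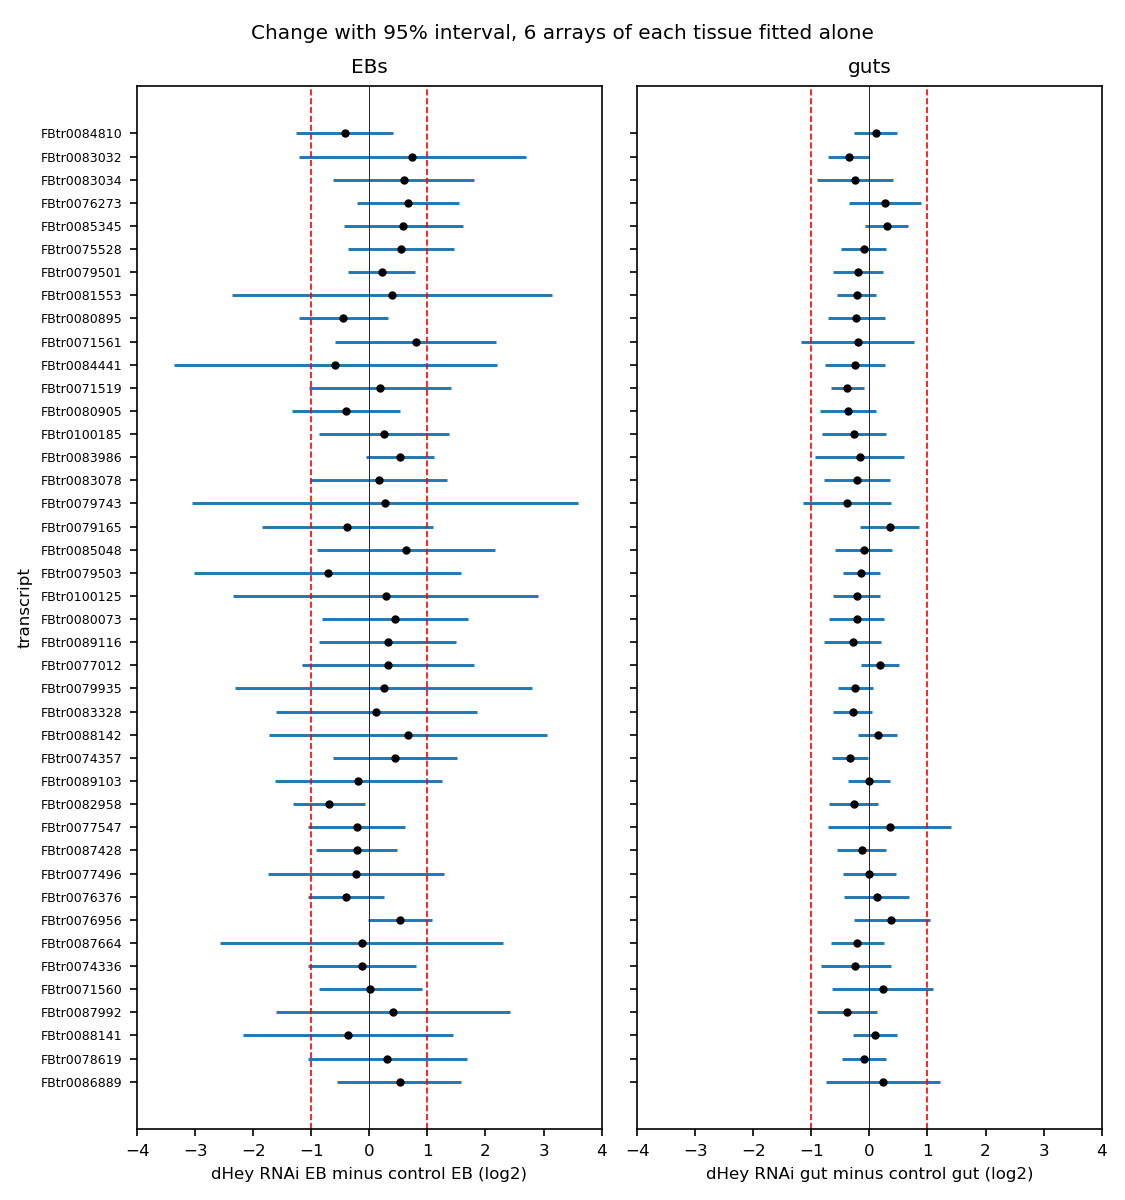
Mean change with its 95% interval (bars, not adjusted, 6 arrays of 1 tissue per fit) for each of the 42 transcripts, in dHey RNAi EBs against control EBs (left) and dHey RNAi guts against control guts (right), on the same log2 scale. The dashed lines mark a change of 1 log2 unit, which contain the whole interval for 3 of 42 transcripts in EBs and 36 of 42 in guts.

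In EBs most of the 42 were among the dim transcripts of the array. Their mean level had a median of 6.64 in dHey RNAi EBs (range 4.29 to 9.64) and of 6.48 in control EBs (4.25 to 9.32). In control EBs, 22 of 42 lay in the dimmest 25% of transcripts, 8 in the dimmest 10% and 0 above the middle. The dimmest was FBtr0080073, with 3.95, 5.91 and 4.21 in dHey RNAi EBs and 4.18, 4.16 and 4.41 in control EBs, where 0.776% of transcripts were dimmer in control EBs. For the 22 in the dimmest 25%, the mean in dHey RNAi EBs lay above that in control EBs for 16 and below it for 6, with a median difference of 0.38. For the 20 others it lay above for 11 and below for 9, with a median of 0.14. The split used the control EB mean, and a low value of it favours a difference above 0, so nothing is read from these counts. Background signal was not available as a separate value, so whether the dimmest were detected in EBs was not tested.

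The mean difference of dHey RNAi EBs from control EBs had a median of 0.25 log2 units (range -0.72 to 0.80). Of the 42 differences, 15 lay below 0, against 48% of all transcripts. The tissue limit favours low control EB values, and so differences above 0, so nothing is read from this share. By limma, 1 of 42 had an adjusted p under 0.05, where 27.4% of all transcripts were called in either direction and 14.4% were called lower. It was FBtr0082958, named after its values were seen, with 4.44, 4.58 and 4.92 in dHey RNAi EBs and 5.62, 5.30 and 5.09 in control EBs, a difference of -0.69. Its arrays did not overlap, but all 6 values were among the dim ones, and no call was made among the 42 when only the 6 EB arrays were fitted (8.23% of all transcripts), or without control gut array 2, dHey RNAi gut array 1 or 2, or control EB array 1 or 2. A block for the replicate number gave 2 calls among the 42, where 33.4% of all transcripts were called. Non-overlapping arrays in EBs were found for 2 transcripts that were higher in dHey RNAi EBs (17.4% of all) and for 1 that was lower (17.3% of all). The higher ones were FBtr0083986 (4.66, 5.16 and 5.10 in dHey RNAi EBs, 4.30, 4.47 and 4.55 in control EBs) and FBtr0076956 (7.78, 7.96 and 7.60 in dHey RNAi EBs, 7.13, 7.19 and 7.45 in control EBs), again named after their values were seen. For none of the 42 did the knockdown effects in EBs and guts differ with an adjusted p under 0.05 (12.8% of all transcripts). The limits on both effects bear directly on that count. The EB limit also bears directly on the counts of calls and non-overlapping arrays above.

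Behind the small EB means lay wide spreads between replicates. The median SD of the 42 was 0.87 in dHey RNAi EBs and 0.50 in control EBs. The 258 other strongly gut-enriched transcripts had 0.85 in both groups, while over all transcripts it was 0.41 in dHey RNAi EBs and 0.35 in control EBs. Within an EB group, 17 of 42 spanned more than 2 log2 units in at least 1 group, and 35 spanned more than 1. No transcript spanned more than 2 within a gut group. The widest was FBtr0079743, at 7.12, 9.67 and 9.90 in dHey RNAi EBs and 10.80, 5.72 and 9.35 in control EBs, against 13.44, 12.85 and 13.60 in dHey RNAi guts and 14.21, 13.70 and 13.11 in control guts. Its mean difference in EBs was 0.27, with a 95% interval of -3.05 to 3.59 in the 6 EB arrays. In deposited intensities its control EB arrays read 1490, 40.5 and 705, so the spread was present before the normalization used here. FBtr0084441 averaged 8.11 ± 2.16 in dHey RNAi EBs and 8.69 ± 1.33 in control EBs (SD, n = 3 each).

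Part of this spread was common to strongly gut-enriched transcripts, more clearly in dHey RNAi EBs than in control EBs. Over the 258 others, the median deviation from the group mean was -0.59 in dHey RNAi EB array 1, 0.17 in array 2 and 0.39 in array 3, and 0.69, -0.73 and 0.11 in control EB arrays 1, 2 and 3. Over the 42, the median deviations were -0.64, 0.29 and 0.18 in dHey RNAi EBs and -0.03, -0.17 and 0.13 in control EBs. Over all transcripts they stayed within 0.05 of 0. The dHey RNAi EB array 1 was the lowest of its 3 arrays for 26 of the 42 (61.9%), where it was lowest for 34.4% of all transcripts. Control EB array 2 was the lowest of its 3 for 22 of the 42 (52.4%, against 31.4% of all). Whether carry-over of other gut cells moved with these arrays was not tested, since no marker could be matched.

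Taking the 6 EB deviations of a transcript, 11 of the 42 (26.2%) correlated at r of 0.7 or more with the median profile of the 258 others, against 6.4% of all transcripts. The 258 form the profile themselves, and 49.2% of them reached this value. These correlations rest on 6 arrays that all the transcripts share and are given as a description. FBtr0079743 and FBtr0079935 had the highest value (r = 0.99 each), followed by FBtr0083328 (0.97) and FBtr0088141 (0.91). FBtr0079935 read 6.39, 8.71 and 9.05 in dHey RNAi EBs and 9.31, 5.78 and 8.32 in control EBs, low in the same arrays as FBtr0079743. FBtr0083328 read 6.85, 7.83 and 8.83 in dHey RNAi EBs and 8.67, 6.40 and 8.08 in control EBs, again lowest in dHey RNAi EB array 1 and control EB array 2. Of the 20 transcripts above the dimmest 25% in control EBs, 9 reached this value, and of the 22 within it, 2. A further 14 of the 42 had r below 0. FBtr0079503 was one, with 5.51, 6.46 and 6.63 in dHey RNAi EBs and 5.79, 9.22 and 5.77 in control EBs, so that it was highest in the control EB array in which the profile was lowest (r = -0.54). The other two control EB arrays lay within the range of its dHey RNAi EB arrays, beside a mean difference of -0.72.

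**Figure D4:**
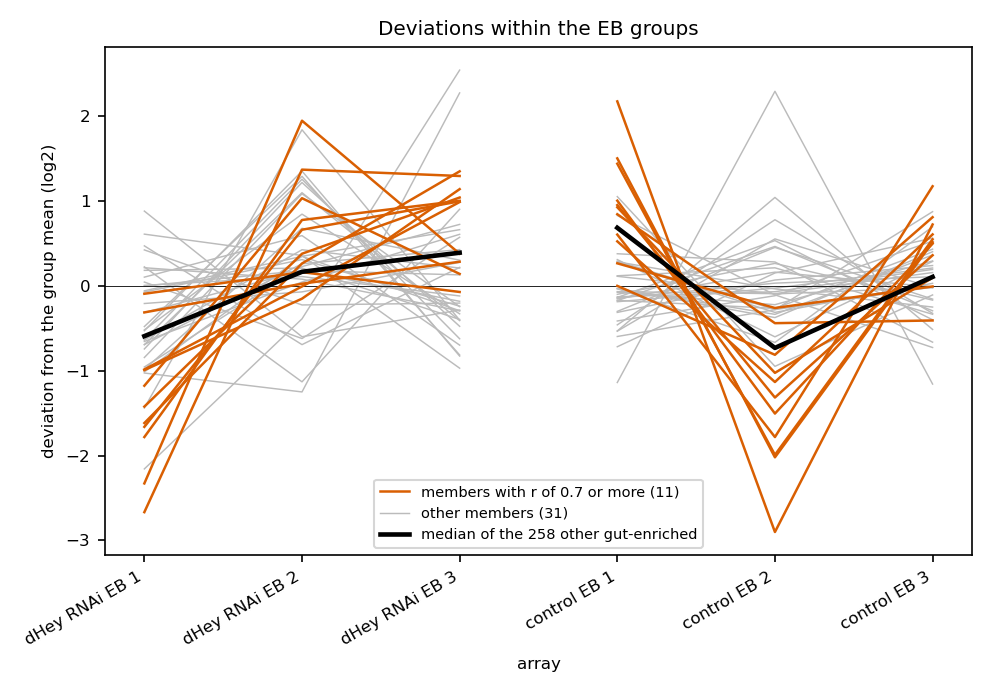
Deviation of each of the 42 transcripts from its group mean (y axis, log2) in the 6 EB arrays (x axis, dHey RNAi EBs left, control EBs right), with the 11 transcripts at r of 0.7 or more in orange, the other 31 in grey and the median of the 258 other strongly gut-enriched transcripts in black. The black line is lowest in dHey RNAi EB array 1 and control EB array 2. The orange lines were chosen for their likeness to it, so nothing is read from their being lowest there too.

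Which transcripts met the limits changed when an array was left out. The number meeting them ran from 31 without dHey RNAi gut array 3 to 57 without control EB array 1, and 29 to 38 of the 42 were kept. Without each of the 12 arrays in turn, 7 of the 42 met the limits every time, and 4 of these, FBtr0077496, FBtr0079501, FBtr0080895 and FBtr0087428, also did so under all 3 other normalizations tried. FBtr0077496 read 6.33, 8.55 and 7.65 in dHey RNAi EBs, 8.58, 7.30 and 7.33 in control EBs, 11.82, 12.26 and 12.18 in dHey RNAi guts and 11.87, 11.98 and 12.42 in control guts. FBtr0087428 read 7.30, 6.65 and 6.67 in dHey RNAi EBs, 7.21, 7.31 and 6.76 in control EBs, 11.47, 11.54 and 10.94 in dHey RNAi guts and 11.47, 11.45 and 11.43 in control guts. Both had overlapping arrays in each tissue. At the other end, 4 of the 42 no longer met the limits without 6 or more of the 12 arrays, among them FBtr0079743, FBtr0083032 and FBtr0087992, each within 0.1 log2 units of a limit.

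**Figure D5:**
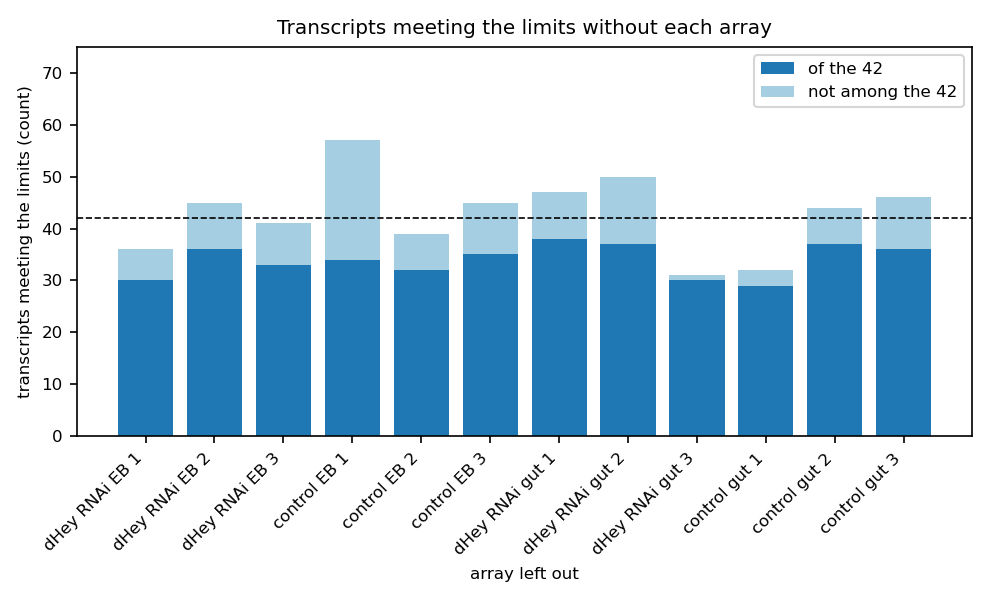
Number of transcripts that met the 3 limits (y axis, count) when the array on the x axis was left out, split into those among the 42 (dark) and others (light), with a dashed line at 42. The total runs from 31 to 57, and 29 to 38 of the 42 are kept.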

How the data were processed

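The authors extracted the arrays in NimbleScan and normalized and tested them in ArrayStar. The submitters' processing notes name RMA. The deposited matrix holds 1 linear intensity per transcript and array, from 4 probes of 60 nucleotides per target. From which step it comes is not given in the sources used here. Array means differed, so log2 intensities were quantile normalized over 12 arrays. This can hide a change common to most transcripts. The deposited workbooks hold the authors' group means, folds, p-values and t scores, and were not used.

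One limma 3.58.1 fit in R 4.3.3 (lmFit, eBayes, 4 group means, 8 residual degrees of freedom) gave intervals and Benjamini-Hochberg adjusted p over 15473 transcripts. No transcript was filtered out. The script was tested on simulated data that had as much spread as the real arrays, in which false calls were far more frequent in EBs than in guts and EB intervals were too narrow, since all groups share 1 error. EB calls and intervals of this fit are therefore set beside fits of the 6 arrays compared. Replicates are independent crosses per the study, and their number limits the precision.

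The 42 transcripts and the marker lists were chosen with earlier results of these data known. Named were the 10 transcripts with the lowest control EB minus control gut difference, the 5 brightest in control guts, and the 2 on each side of each limit. Others were named for their values, after these were seen.

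Same-numbered arrays deviated together in EBs over all transcripts (r = 0.183, 0.321 and 0.127). Pairing of the EB arrays by number was therefore possible, from the data alone. The fit of group means did not pair arrays, and the replicate number entered a fit only as a block, among the alternatives. Over the 42, same-numbered EB arrays did not all deviate together (-0.453, -0.0234 and 0.188). The EB arrays numbered 3 had unlike mean intensities (2340 in dHey RNAi EBs, 3210 in control EBs). Not all gut pairs deviated together over all transcripts (0.168, 0.00482 and 0.256). Over the 42 each gut pair did (0.615, 0.353 and 0.232), and same-numbered gut arrays had like mean intensities. Whether the numbers mark pairs was not settled in either tissue. Alternatives covered normalization, limits, a filter on dim transcripts, arrays fitted, the block, the prior and leaving out each array. A block of 5 array sets with like mean intensity was added after seeing the data.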

Additional observations from a re-analysis of the deposited data

How the results depend on the processing

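Other limits changed the number of transcripts from 42 to 119 and 17 (tissue limit -3 and -5), 14 and 65 (gut limit 0.2 and 0.6) and 22 and 59 (EB limit 0.4 and 1.2). Centring each array on its median gave 26, of which 24 were among the 42, while the deposited values without normalization gave 44, of which 31 were. A filter leaving out the dimmest 1 in 3 transcripts gave 35, of which 30 were among the 42. It removed 4 of the 42 directly.

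Gut intervals within 1 log2 unit numbered 36 with only the 6 arrays compared, 5 with median centring, 3 without normalization, 20 with the replicate block, 16 with the dimmest 1 in 3 left out and 21 with array sets as a block, against 9. Leaving out 1 array gave 6 to 19, with 16 without dHey RNAi EB array 1 and 19 without array 2. EB intervals within 1 numbered 3, 8, 3, 12, 13 and 11 under the same settings, against 5. Leaving out 1 array gave 3 to 9, with 3 without control EB array 1 or dHey RNAi EB array 1 and 9 without dHey RNAi EB array 2. Calls in EBs numbered 0 with 6 arrays, median centring, no normalization or an intensity trend with robust prior, 2 with the replicate block and 3 with array sets as a block, against 1. They ran from 0 to 2 without 1 array: 0 without control gut array 2, dHey RNAi gut array 1 or 2, or control EB array 1 or 2, and 2 without control EB array 3 or dHey RNAi EB array 1 or 3. The cause was not tested. Calls in guts stayed at 0 and calls between tissues at 42 without each array, and the transcript count ran from 31 to 57. The replicate block changed no other call.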
